A study of Mus musculus with 4 samples.

Results

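The histone cluster genes were taken as the rows of the gene tables with the biotype protein_coding whose name begins with Hist1h, Hist2h, Hist3h or Hist4h. They number 67 of the 25704 genes listed, and 67 of the 21969 protein coding genes. By class they are 6 genes for the linker histone H1 and 18 for H2A, 18 for H2B, 12 for H3 and 13 for H4, the core histones. In mm10 the Hist1 cluster (54 genes) is on chromosome 13, Hist2 (10 genes) on chromosome 3, Hist3 (2 genes) on chromosome 11 and Hist4 (1 gene) on chromosome 6. RNA was sequenced from CMT64 cells, an established line of mouse lung carcinoma cells with wild-type p53, cultured in medium with serum. Cells were left without cytokine (control) or given TGF-β at 5 ng/ml, TNF-α at 10 ng/ml or both (costimulation), and were harvested 24 h later. Only 1 library stood for each of the 4 conditions. The spread between cultures is therefore unknown, and all values come from 1 cell line.

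Histones package DNA into nucleosomes. The canonical histones are made mainly in S phase from clustered genes without introns, and their mRNAs end in a conserved stem-loop instead of a poly(A) tail. The stem-loop binding protein SLBP holds that end, U7 snRNP guides its cleavage, and the mRNAs are degraded when DNA synthesis stops. Some cluster genes also give longer, polyadenylated transcripts from signals past the stem-loop, as is known in cells that leave the cycle or differentiate. The libraries were made from RNA captured on oligo(dT) beads, which bind poly(A), so the counts below follow what that capture retained of each gene and cannot be read as its total RNA.

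The stem-loop is shown first because it sets apart the annotated ends of these genes. In the GENCODE M21 transcripts (mm10), whose gene coordinates equalled the deposited ones for 67 of 67 genes, a histone stem-loop (16 bases, a stem of 6 base pairs with a loop of 4, searched on the transcript strand) was found in 46 of the 67 histone genes. It was found in 9 of the 55383 other annotated genes, or 0.0163%. Capitals mark the stem-loop and lower case the 5 bases on either side.

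Hist1h1c, chr13:23739512-23739527, + strand: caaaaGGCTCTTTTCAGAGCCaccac
Hist3h2a, chr11:58955172-58955187, + strand: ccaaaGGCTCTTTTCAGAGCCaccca
Hist1h2ag, chr13:22042483-22042498, − strand: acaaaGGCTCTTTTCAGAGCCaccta
Hist1h3c, chr13:23745047-23745062, − strand: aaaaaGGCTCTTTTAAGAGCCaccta
Hist1h4d, chr13:23581950-23581965, + strand: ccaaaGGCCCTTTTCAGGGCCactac
Hist1h4i, chr13:22040966-22040981, − strand: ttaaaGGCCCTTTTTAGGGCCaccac

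The 46 genes carried 8 different stem-loops. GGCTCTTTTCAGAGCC was in 26 genes, namely 3 of H1, 10 of H2A, 8 of H2B, 5 of H3 and 0 of H4. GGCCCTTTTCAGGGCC was in 7 genes, all of H4. What differed more was the length of annotated exon past the stem-loop. In 23 genes it ran for 108 to 4884 bases (median 752), and 12 of those 23 had a polyadenylation hexamer (AATAAA or ATTAAA) in the last 40 bases. In 23 others the annotated end lay 3 to 74 bases past the stem-loop (median 33), and 1 had a hexamer. The genes nearest to the limit of 100 bases, which was chosen after the values were seen, were Hist1h3c with 74 and Hist1h4a with 108. No such letters were found in the transcripts of the remaining 21 genes. Some of these annotated transcripts are short, as in Hist1h4k (312 bases), Hist1h2bl (381) and Hist1h2ai (393), while others are long, as in Hist2h2be (2620). A stem-loop past an annotated end could not be seen, so these genes cannot be said to lack one.

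Promoters are shown because genes of one class share motifs there, while members of a class went different ways with TGF-β. RefSeq (GRCm38.p6) gave a promoter starting within 2000 bases for 61 of the 67 genes. The CCAAT box (CCAAT, both strands) was present in the promoter window (250 bases before to 50 after the start) of 85.2% of these, against 37.9% of 27025 promoters. It was in every promoter of H1 (6), H2A (17), H2B (16) and H3 (10) but in 3 of 12 of H4. The letters TATAAA (both strands) were in 57.4% against 14.2%. The octamer ATTTGCAT (both strands), which is known as a site of Oct-1, was in 7 of 17 H2A and 6 of 16 H2B promoters and in none of H1, H3 and H4, against 1.75% of all promoters. The 150 bases before the start are given for a pair of genes that fell with TGF-β (Hist1h1c and Hist3h2a), one that rose (Hist1h2ag) and one that passed neither way (Hist1h4i). Capitals mark these motifs on either strand, and none overlapped another in these windows.

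Hist1h1c, chr13:23738657-23738806, + strand: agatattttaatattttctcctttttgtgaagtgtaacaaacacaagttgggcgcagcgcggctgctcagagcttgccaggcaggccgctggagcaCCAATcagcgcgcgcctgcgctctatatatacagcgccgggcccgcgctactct
Hist3h2a, chr11:58954535-58954684, + strand: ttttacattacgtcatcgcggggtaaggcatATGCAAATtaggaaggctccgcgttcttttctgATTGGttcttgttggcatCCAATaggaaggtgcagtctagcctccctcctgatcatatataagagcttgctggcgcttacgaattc
Hist1h2ag, chr13:22042950-22043099, − strand: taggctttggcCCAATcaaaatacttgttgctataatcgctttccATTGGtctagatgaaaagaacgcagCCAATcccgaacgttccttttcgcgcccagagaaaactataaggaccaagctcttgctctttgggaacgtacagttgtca
Hist1h4i, chr13:22041363-22041512, − strand: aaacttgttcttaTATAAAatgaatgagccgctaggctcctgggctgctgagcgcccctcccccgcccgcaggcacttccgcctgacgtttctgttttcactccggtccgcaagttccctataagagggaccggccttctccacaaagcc

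The shown windows of Hist1h1c, Hist3h2a and Hist1h2ag all held CCAAT boxes, and the octamer was in that of Hist3h2a only. Because every H1, H2A, H2B and H3 promoter found held a CCAAT box, its presence could not set apart genes of these classes that fell from genes that rose. Whether the motifs ran with the folds was not tested.

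The libraries held 75358896 (control), 81245906 (TGF-β), 77606742 (TNF-α) and 75984151 (costimulation) mapped reads, as implied by the deposited RPKM, a read count scaled to exon length and sequencing depth. Uniquely mapped reads made up 86.7% to 88.5% of exon reads over all genes. Epithelial markers (Epcam, Cdh1, Krt8, Krt18, Krt19 and Cldn7) summed to 2200.5 to 3859.6 RPKM. The 5 haematopoietic markers summed to 0.0201 to 0.125 RPKM and the 4 endothelial ones to 0.0548 to 0.0925. The 5 alveolar and airway markers summed to 9.71 and 8.08 RPKM without TGF-β and 15.99 and 14.94 with it. Of these 5, 3 were under 10 reads in every library, and Scgb1a1 was at 0 reads. The part of these 5 markers in the histone values was not tested. The 6 fibroblast markers summed to 0.461 and 0.441 RPKM without TGF-β and 9.56 and 11.4 with it, with 4 of the 6 under 10 reads in every library, and their part in the histone values was not tested. Intron reads made up 6.72% of gene reads in the control and 8.16% to 8.50% in the other libraries. Across tested genes the log2 fold of TNF-α over control ran with GC content (Spearman's rho −0.53 over genes, which are not independent), that of TGF-β over control less so (−0.25) and that of costimulation over TNF-α hardly (0.02). The tested histone genes had a median GC of 57.8% against 50.2% for all tested genes. The part of GC content in the values below was not tested beyond the corrected fit described with them.

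Histone genes took few reads, and few genes took most of them. Total exon reads of the 67 genes came to 19629 in the control, 12434 after TGF-β, 18590 after TNF-α and 11829 after costimulation, or 260.5, 153, 239.5 and 156 reads per 1000000 mapped reads (RPM). Both libraries with TGF-β were below both libraries without it. Uniquely mapped reads gave 174, 97.8, 163 and 100.7 RPM in the same order. Hist1h1c, which encodes the linker histone H1.2, held 44.6% of the 62482 reads over the libraries, and with Hist1h2bc the share was 61.2%. The 8 genes with the most reads held 83.3%. Of the 67, 36 genes had at least 100 reads over the libraries and 9 of these at least 1000, 24 had 10 to 99, 4 had 1 to 9, and 3 (Hist1h2aa, Hist1h2ba and Hist1h4m) had none. Hist1h2aa and Hist1h2ba are known from testis, as is the linker histone gene Hist1h1t, which had 3 reads in the TNF-α library and 0 in the others.

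**Figure D1:**
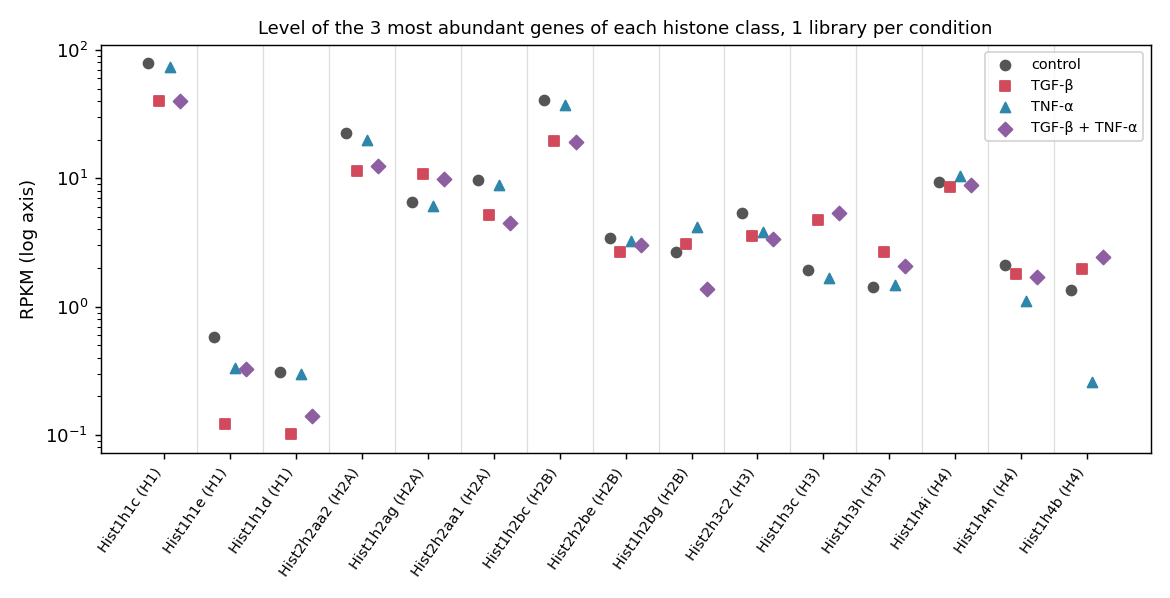
RPKM (log axis) of the 3 genes of highest mean RPKM in each of the 5 histone classes, with 1 point per library. Hist1h1c was at 78.8, 39.7, 73.1 and 39.9 RPKM in control, TGF-β, TNF-α and costimulation, and the points of Hist1h3c lie the other way, at 1.92, 4.77, 1.68 and 5.37.

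The same coding sequence recurs across the clusters, so many reads fitted several genes, and the deposited tables give total reads beside uniquely mapped ones. The uniquely mapped share was 66.8%, 63.9%, 68.0% and 64.7% of the histone reads in control, TGF-β, TNF-α and costimulation. Among the 36 genes with at least 100 reads the median share was 52.5%, with 16 genes under 50%, 15 from 50% to under 90% and 5 at 90% or more. H1 genes were mostly unique, at 80.6% (Hist1h1e) to 96.0% (Hist1h1c), whereas H2A genes ran from 0% (Hist2h2aa2) to 83.9% (Hist1h2ac). H2B ran from 1.88% (Hist1h2bq) to 98.4% (Hist2h2be), H3 from 1.63% (Hist1h3h) to 69.1% (Hist1h3a), and H4 from 11.6% (Hist1h4n) to 90% (Hist1h4d). The share ran with the percentage of a gene's 50-base windows that occur in no other annotated transcript (rho 0.83 over the 36 genes, a description of genes that share sequence).

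Hist3h2a was an exception with long exon of its own. It had 0 unique reads of 3948, which allows a share of up to 0.0760%, although 68.5% of its windows occurred in no other transcript. In the tables the gene Trim17 overlaps it on the same strand and starts at the same base, and Trim17 itself had 24, 44, 15 and 30 total exon reads in the order used above. Hist2h2aa2 had 0 unique reads of 2699, which allows up to 0.111%, and 100% of its windows recurred in other transcripts, with Hist2h2aa1 as the nearest histone gene.

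**Figure D2:**
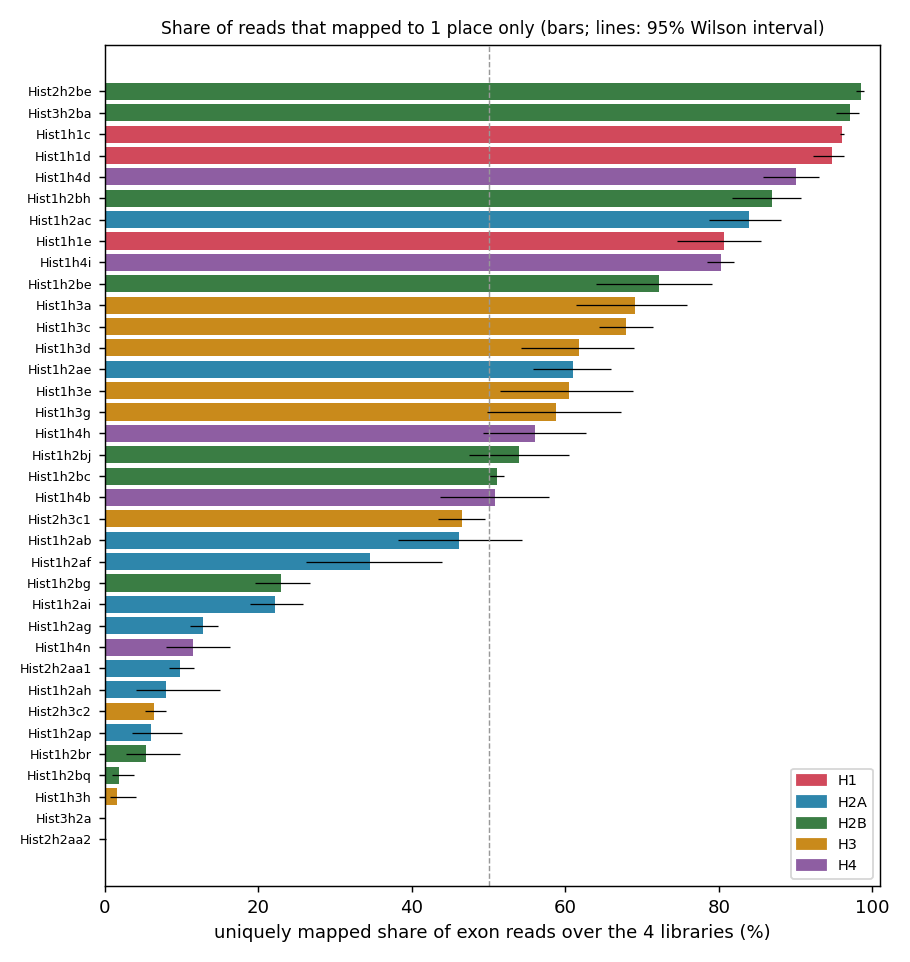
Uniquely mapped share of exon reads over the 4 libraries (%, bars, with 95% Wilson intervals that cover counting error only) for the 36 histone genes with at least 100 reads, coloured by class. H1 genes lie at 80.6% or more, while Hist3h2a and Hist2h2aa2 lie at 0%.

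Of the 9 histone genes with at least 1000 reads, 5 fell with TGF-β (Hist1h1c, Hist1h2bc, Hist3h2a, Hist2h2aa2 and Hist2h2aa1), 1 rose (Hist1h2ag) and 3 did not pass the test (Hist2h2be, Hist1h4i and Hist2h3c2). Hist2h2aa2 and Hist2h2aa1 are near-copies that share most reads. The share called among all genes with at least 1000 reads is not given here, so this count has no background. In the additive fit (edgeR, TGF-β and TNF-α as terms over the 4 libraries, 1 residual degree of freedom, adjusted p over all genes tested) 53 of the 67 genes could be tested. Of these, 9 rose and 11 fell, where over all 13509 genes tested 18.6% rose and 19.9% fell. The shares of the histone genes were therefore close to those of all genes. With unique reads 35 histone genes could be tested, and 4 rose and 7 fell, against 19.0% and 19.8% of all 12770 genes tested. All 11 were called the same way with total reads. Of the other 9 genes called with total reads, 7 could not be tested with unique reads and 2 did not pass. Those were Hist2h2aa1, at −0.95 ± 0.47 on the log2 scale with unique reads (edgeR, adjusted p = 0.1005), and Hist1h2ag, at 0.72 ± 0.42 (edgeR, adjusted p = 0.176), with values near those from total reads given below. The p-values rest on libraries that differ in the other cytokine and not on replicate cultures.

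Of the H1 genes, which encode the histone that binds linker DNA, 3 of 3 tested fell. Hist1h1c had 9264 reads in the control, 5026 after TGF-β, 8850 after TNF-α and 4728 after costimulation, of which 8920, 4812, 8505 and 4517 were unique. The libraries with TGF-β had about 0.5 times the reads of those without it and did not overlap them. The fold was 0.50 (95% counting interval 0.49 to 0.52) over control and 0.55 (0.53 to 0.57) when TGF-β was added to TNF-α, and the log2 fold change of the additive fit was −1.0 ± 0.15 (SE; edgeR, adjusted p = 2.42e-10). Hist1h1d, which encodes H1.3, had 174, 61, 173 and 79 reads in that order, with the same separation and a log2 fold change of −1.42 ± 0.32 (edgeR, adjusted p = 4.62e-05). Hist1h1e, which encodes H1.4, had 84, 19, 50 and 48 reads, so that costimulation was level with TNF-α. Its fall (−1.14 ± 0.43, edgeR, adjusted p = 0.0231) was kept in 6 of 12 other fits and lost when either the control or the TGF-β library was left out. Its range on the deposited map overlaps Hist1h2be. The other H1 genes, Hist1h1a, Hist1h1b and Hist1h1t, had 16, 4 and 3 reads in all.

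Among the H2B genes, which pair with H2A in the nucleosome, Hist1h2bc took most reads. It had 3517, 1837, 3344 and 1688 total reads and 1739, 945, 1752 and 868 unique ones, in the order control, TGF-β, TNF-α and costimulation. Both kinds of read put the TGF-β libraries at about 0.5 times the others. The log2 fold change was −1.07 ± 0.15 with total reads (edgeR, adjusted p = 2.26e-11) and −1.05 ± 0.16 with unique reads (edgeR, adjusted p = 2.38e-10). Its annotated transcript joins 2 exons, and no stem-loop was found in it. Hist3h2ba, in the Hist3 cluster beside Hist3h2a, had 180, 64, 186 and 83 reads, 97.1% of them unique, and fell (−1.43 ± 0.31, edgeR, adjusted p = 3.24e-05). Hist2h2be, with the highest unique share, had 672, 569, 655 and 606 reads and did not pass (−0.28 ± 0.17, edgeR, adjusted p = 0.190). Its folds were 0.79 (0.70 to 0.88) over control and 0.94 (0.84 to 1.06) over TNF-α, so the counting intervals alone separated only the first from 1.

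The remaining calls in H2B came from genes whose reads are largely shared. Hist1h2bg had 124, 155, 200 and 65 reads, with 29, 27, 56 and 13 unique, and its fall (−0.73 ± 0.31, edgeR, adjusted p = 0.0490) rested on the pair with TNF-α, where the fold was 0.33 (0.25 to 0.44) against 1.16 (0.91 to 1.48) over control. The call was lost without the control, TNF-α or costimulation library. Hist1h2bk had 0, 26, 3 and 50 reads and rose, at least 8.04-fold higher with TGF-β than the floor of 3 reads per library in the control allows, and 17.0-fold (5.50 to 85.3) over TNF-α. Hist1h2bl had 17, 29, 0 and 4 reads and was the only histone gene called for TNF-α (lower).

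Hist1h2bq and Hist1h2br are near-copies with few unique reads, and their counts went opposite ways. Hist1h2bq had 76, 147, 91 and 58 reads and Hist1h2br 73, 0, 68 and 27, in the order control, TGF-β, TNF-α and costimulation. Where one was high with TGF-β alone the other was at 0. Their unique shares were 1.88% and 5.36%, and 97.3% of the windows of Hist1h2bq occurred in other histone genes, most in Hist1h2br. The sums were 149, 147, 159 and 85, with folds of 0.92 (0.72 to 1.16) over control and 0.55 (0.41 to 0.71) over TNF-α. The call of Hist1h2br as lower (−2.77 ± 0.54, edgeR, adjusted p = 8.69e-06) did not have a counterpart in the sum for TGF-β alone, and was lost without the control and without the TNF-α library.

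The H2A genes called divided by cluster. In Hist2, Hist2h2aa2 had 898, 486, 811 and 504 reads and its near-copy Hist2h2aa1 had 425, 248, 405 and 201. Both were lower in each library with TGF-β than in each without it, and both fell (−0.89 ± 0.17 and −1.0 ± 0.22). Their unique reads were 0 and 126 over the libraries, so most of their reads cannot be told apart. Summed, they gave 0.51 (0.47 to 0.56) over control and 0.59 (0.54 to 0.65) over TNF-α. In Hist3, Hist3h2a had 1357, 645, 1289 and 657 reads and fell (−1.13 ± 0.16, edgeR, adjusted p = 6.96e-12), with the reservation that none of its reads was unique.

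In Hist1, by contrast, the 4 H2A genes called were all higher. Hist1h2ag had 239, 429, 227 and 361 reads, of which 30, 49, 28 and 54 were unique. Both kinds of read were higher in the libraries with TGF-β, with folds of 1.66 (1.42 to 1.96) over control and 1.62 (1.37 to 1.93) over TNF-α from total reads. The rise (0.65 ± 0.22, edgeR, adjusted p = 0.00974) was lost without either library with TGF-β. Hist1h2ap, Hist1h2an and Hist1h2ah were also called, from 214, 48 and 100 reads in all and unique shares of 6.07%, 12.5% and 8%. Hist1h2ap had 56, 80, 9 and 69 reads and was lowest in the TNF-α library. Its near-copy Hist1h2ao, in which 93.1% of the windows of Hist1h2ap occur, had 0, 0, 16 and 0 reads, with 0 unique. Hist1h2ao thus had reads only in the library where Hist1h2ap was low, and the part of shared reads was not tested. Hist1h2ah had 0 reads in the control and 37, 32 and 31 in the others. The call of Hist1h2ap held without the control library only, that of Hist1h2ah without the TNF-α library only and that of Hist1h2an without the control or costimulation library. Hist1h2ac, the H2A gene of highest unique share, had 87, 60, 47 and 42 reads and did not pass.

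The H3 genes called also divided between Hist1 and Hist2. Hist1h3c had 91, 244, 82 and 257 total reads and 64, 176, 51 and 167 unique ones. The libraries with TGF-β had over 2 times the reads of the others by both counts, with folds of 2.49 (1.95 to 3.20) and 3.20 (2.49 to 4.16). The log2 fold change was 1.43 ± 0.28 with total and 1.47 ± 0.30 with unique reads (edgeR, adjusted p = 3.21e-06 and 5.71e-06). Hist1h3a had 12, 61, 18 and 61 reads and rose (1.92 ± 0.49, edgeR, adjusted p = 0.000419). In Hist2, Hist2h3c1 had 338, 143, 294 and 221 reads and fell (−0.92 ± 0.24, edgeR, adjusted p = 0.000525), a call lost without the control and without the TGF-β library. Its neighbour Hist2h3c2 had 411, 293, 302 and 261 reads and did not pass (−0.46 ± 0.22, edgeR, adjusted p = 0.0786). Not every Hist1 H3 gene was higher, as Hist1h3g had 50, 14, 30 and 25 reads (0.26, 0.13 to 0.48, over control) without a call. Hist1h3d (47, 35, 48 and 35 reads) and Hist1h3e (37, 29, 29 and 24) were likewise lower in both TGF-β contrasts without a call. Hist1h3h had 44, 89, 47 and 65 reads, more in both libraries with TGF-β, also without a call.

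Of the H4 genes, which encode the partner of H3, the most abundant did not move beyond the test. Hist1h4i had 515, 508, 585 and 490 reads and 423, 383, 484 and 394 unique ones, so that the libraries with TGF-β were slightly lower than those without it. Its log2 fold change was −0.25 ± 0.18 (edgeR, adjusted p = 0.295). Hist1h4d had 61, 111, 18 and 70 reads, 90% of them unique, and rose (1.21 ± 0.39, edgeR, adjusted p = 0.00694). Hist1h4b had 40, 63, 8 and 74 reads and rose (1.57 ± 0.46, edgeR, adjusted p = 0.00236). In both genes the TNF-α library was the low one. Both calls were lost without it, that of Hist1h4d also without the TGF-β library and that of Hist1h4b also without the costimulation library. Hist1h4n had 69, 63, 37 and 56 reads and did not pass.

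**Figure D3:**
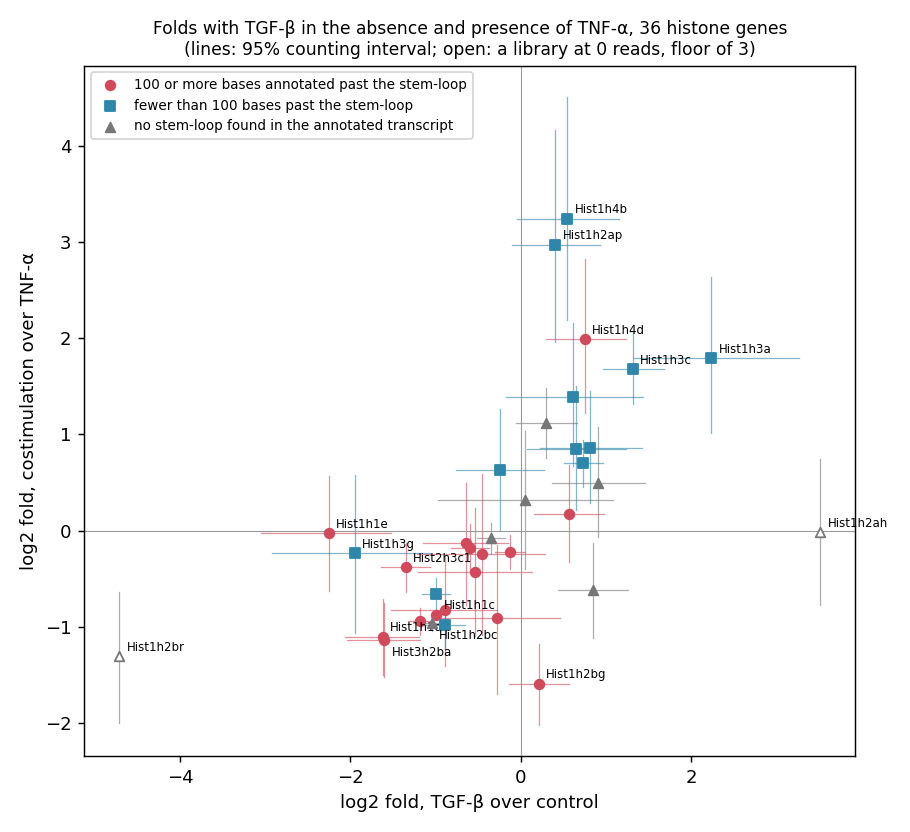
Log2 fold of TGF-β over control (x) against log2 fold of costimulation over TNF-α (y) for the 36 histone genes with at least 100 reads, by length of annotated exon past the stem-loop, with 95% counting intervals as lines. Genes with 100 or more bases lie mostly below 0 on both axes (13 of 16 on x, 14 of 16 on y) and those with fewer mostly above (8 of 12 and 9 of 12).

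The pair of TGF-β contrasts share no library, and for the 36 genes with at least 100 reads 32 had the same sign in both, against 79.0% of the other genes with that many reads. The folds correlated over genes (Spearman's rho 0.70, Pearson's r 0.54, n = 36), given as a description because members share reads and libraries share depth. The median log2 fold was −0.26 over control and −0.16 over TNF-α, beside 0.07 and 0.06 over all 12355 genes with at least 100 reads. Counting intervals lay wholly above 1 for 10 of 36 and wholly below 1 for 15 of 36 histone genes over control (27.8% and 41.7%), against 47.2% and 36.3% of all genes. Over TNF-α they did so for 11 and 14 (30.6% and 38.9%), against 45.1% and 34.2%. Mean RPKM did not order the folds (rho 0.05 over control and −0.01 over TNF-α).

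Genes with a long annotated exon past the stem-loop and genes with a short one lay mostly on different sides. The limit between them was chosen after the values were seen. Of the 23 with at least 100 such bases 21 were tested, and 7 fell and 1 (Hist1h4d) rose. Of the 23 with fewer, 19 were tested, and 6 rose and 2 (Hist2h2aa1 and Hist2h2aa2) fell. Over all genes tested 18.6% rose and 19.9% fell. Among genes with at least 100 reads the median log2 fold was −0.62 for 16 long and 0.58 for 12 short genes over control, and −0.40 and 0.86 over TNF-α. The 8 genes without a stem-loop in their annotated transcript had medians of 0.18 and −0.05. With unique reads alone, summed over each set, the folds were 0.52 (0.51 to 0.54) for the long and 1.61 (1.39 to 1.86) for the short genes over control, and 0.57 (0.55 to 0.59) and 1.94 (1.67 to 2.25) over TNF-α. The total reads of the short genes, which include Hist2h2aa1 and Hist2h2aa2, gave 0.90 (0.85 to 0.96) and 1.09 (1.02 to 1.16). Each sum leans on 1 gene. Hist1h1c held 9264 of the 12962 total reads of the long set in the control. In the short set much of the rise in unique reads was that of Hist1h3c, the short gene nearest to the limit. It had 64, 176, 51 and 167 unique reads in control, TGF-β, TNF-α and costimulation. Neither sum was taken without its leading gene, and the split was not tested as such.

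By class, the sums were lower in both libraries with TGF-β for H1, H2B and, by total reads, H2A. H1 came to 126, 63.0, 117 and 64.0 RPM in control, TGF-β, TNF-α and costimulation, and H2B to 63.9, 37.1, 61.0 and 36.4. H2A came to 44.3, 29.5, 39.6 and 30.2 by total reads, but to 3.44, 3.54, 2.74 and 3.58 by unique reads. For H2A the folds over control were accordingly 0.67 (0.63 to 0.70) with total and 1.03 (0.87 to 1.22) with unique reads. Over TNF-α they were 0.76 (0.72 to 0.80) with total but 1.30 (1.09 to 1.57) with unique reads, on opposite sides of 1. The unique sum holds nothing of Hist3h2a and Hist2h2aa2, which fell by total reads and had 0 unique reads. The total and unique sums of H2A therefore rest on different genes. H3 came to 14.6, 11.8, 11.5 and 13.7 RPM, with folds of 0.81 (0.74 to 0.88) over control and 1.20 (1.09 to 1.31) over TNF-α, on opposite sides of 1. With unique reads the H3 folds were 0.96 (0.83 to 1.12) and 1.39 (1.20 to 1.62), so the interval over control then included 1. H4 came to 11.3, 11.7, 10.5 and 11.4, and the counting intervals of its folds included 1 (1.03, 0.94 to 1.13, over control and 1.09, 0.99 to 1.20, over TNF-α). Without Hist1h1c and Hist1h2bc the other 65 genes together stood at 0.75 (0.73 to 0.78) of control, and without the 8 genes of most reads the fold was 1.02 (0.97 to 1.07) over control and 1.17 (1.11 to 1.24) over TNF-α. With unique reads these last folds were 0.85 (0.79 to 0.92) and 1.05 (0.97 to 1.14).

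**Figure D4:**
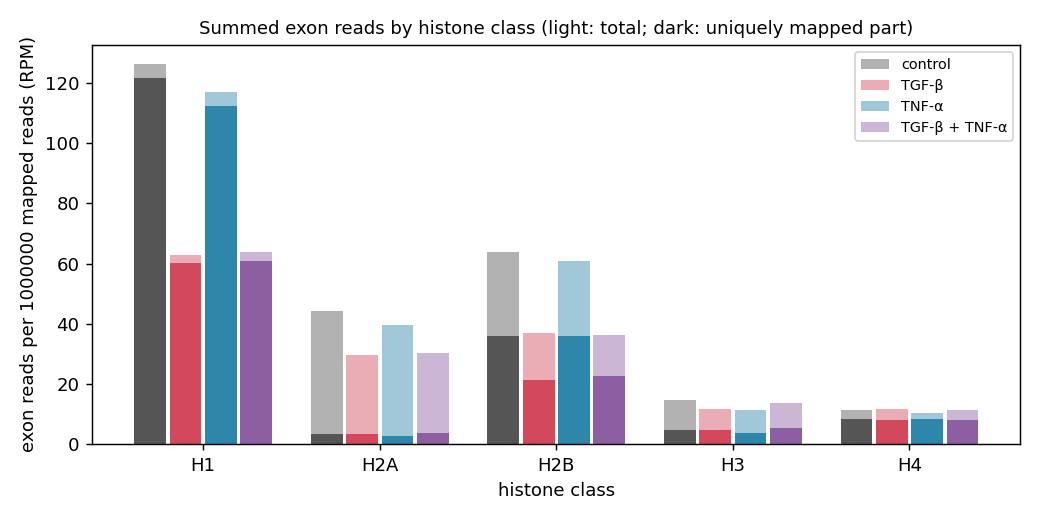
Exon reads per 1000000 mapped reads (RPM) summed over each histone class, with 1 bar per library (light, total reads; dark, the uniquely mapped part). H1 stood at 126 in the control and 63.0 with TGF-β, while the dark part of the H2A bars stayed between 2.74 and 3.58. That dark part holds no reads of Hist3h2a or Hist2h2aa2.

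Because many reads were shared between histone genes, genes were joined where at least 50% of the 50-base windows of 1 occurred in the other. Joined pairs with a gene in common were chained into 1 unit, and the reads of each unit were summed before the fit. A unit can therefore hold mostly distinct genes. Of the windows of Hist1h2bc 69.4% occurred in no other annotated transcript, and of those of Hist1h2ac 85.9%. Reads shared with genes outside the 67 were not pooled. Every window of Hist2h3c1, Hist2h3b and Hist2h2aa1 (100%) also occurs in other annotated genes such as Gm20634. Even so, 46.5%, 21.2% and 9.85% of their reads were counted as unique in the deposited data. The windows therefore do not give the share of their reads that was counted as shared. Hist3h2a, without unique reads, stayed a unit of its own. The 67 genes gave 30 units, 7 of them with several genes, and 22 could be tested. Of these 4 rose and 8 fell with TGF-β, beside 18.6% and 19.9% of all genes tested in the fit of single genes. The 11 Hist1 H2A genes summed to 637, 998, 548 and 905 reads and rose (0.58 ± 0.16, edgeR, adjusted p = 0.00156). The 9 Hist1 H3 genes summed to 325, 506, 277 and 538 and rose (0.69 ± 0.20, edgeR, adjusted p = 0.00199). Most of this rise came from Hist1h3c (91, 244, 82 and 257 reads) and Hist1h3a (12, 61, 18 and 61). Within the same unit Hist1h3d, Hist1h3e and Hist1h3g were lower in both TGF-β contrasts. In both families each library with TGF-β lay above each without it. The 11 Hist1 H2B genes, led by Hist1h2bc, summed to 3891, 2306, 3802 and 1998 and fell (−0.95 ± 0.15, edgeR, adjusted p = 3.32e-09). The 3 Hist2 H3 genes summed to 778, 453, 612 and 505 and fell (−0.64 ± 0.18, edgeR, adjusted p = 0.00120). The other rises were Hist1h4d and Hist1h2bb, the latter with 7, 17, 4 and 20 reads at an adjusted p of 0.04999 in edgeR, on the border of the threshold. Summing was chosen after the values of single genes were seen.

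**Figure D5:**
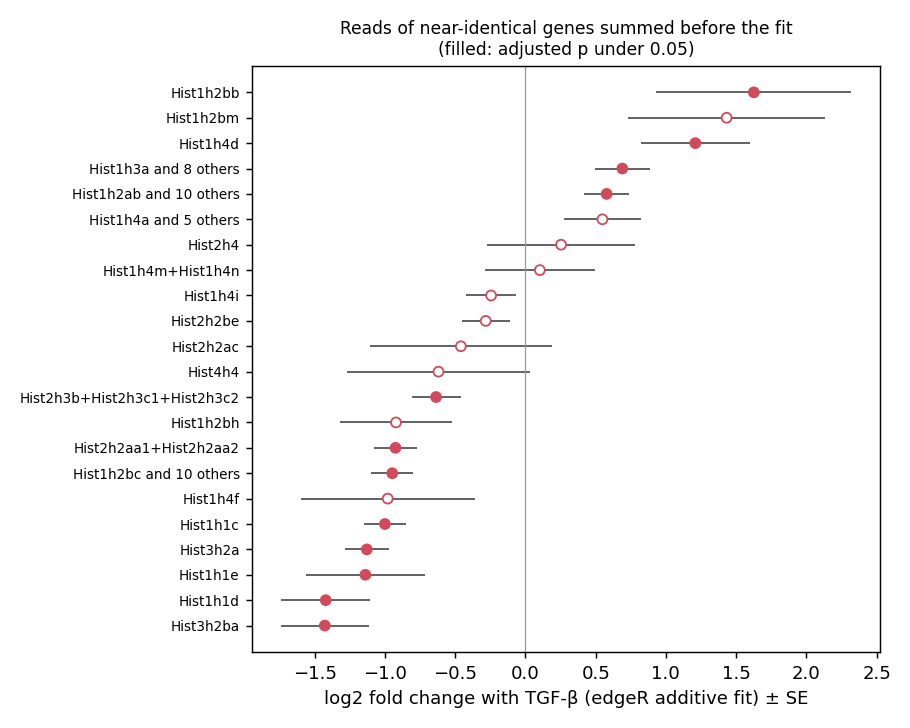
Log2 fold change with TGF-β ± SE (edgeR additive fit) for the 22 units tested after the reads of joined histone genes were summed. A unit can also hold mostly distinct genes. Filled points passed an adjusted p of 0.05, with Hist3h2ba and Hist1h1d lowest at −1.43 and −1.42 and the Hist1 families of H3 and H2A at 0.69 and 0.58.

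The additive fit called few genes of any kind for TNF-α. In the additive fit 1 of 53 histone genes, Hist1h2bl, was called lower and 0 higher, against 0.133% lower and 0.289% higher of all genes. For Hist1h2bl the log2 fold change was −3.49 ± 0.82 (edgeR, adjusted p = 0.00695), from 50 reads in all, and the call was lost in DESeq2, in every fit that left out a library and with GC and length offsets. At an unadjusted p under 0.05 there were 4 of 53 histone genes in edgeR, beside 568 of all 13509 genes tested, and 1 histone gene in DESeq2. No unit of summed reads was called. The median log2 fold was −0.12 for TNF-α over control and 0.07 for costimulation over TGF-β, beside 0.01 and −0.00 over all genes. Counting intervals lay wholly above 1 for 2 and wholly below 1 for 13 of 36 histone genes in the first contrast (5.56% and 36.1%), against 36.3% and 31.9% of all genes. In the second they did so for 7 and 4 (19.4% and 11.1%), against 21.4% and 23.6%. The H3 sum stood at 0.78 (0.72 to 0.86) of control after TNF-α, and that of all 67 genes at 0.92 (0.90 to 0.94). These contrasts share libraries with those of TGF-β. The first is also the one in which folds ran with GC content, as given above.

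Genes that make and handle histone mRNA are given as lists, each read against the 18.6% of all tested genes that rose and the 19.9% that fell with TGF-β. Of 10 genes of histone gene transcription 6 (60%) rose and 0 fell. Among them Ccne1, a cyclin that activates Cdk2 at the start of S phase, had 2.43, 5.35, 2.73 and 5.44 RPKM in control, TGF-β, TNF-α and costimulation. Npat, the coactivator that Cdk2 and cyclin E phosphorylate at histone loci, had 3.72, 6.77, 5.32 and 6.43 RPKM (0.50 ± 0.15, edgeR, adjusted p = 0.00370). Of 18 tested genes of histone 3′ end processing and decay 4 (22.2%) rose and 2 (11.1%) fell. Casp8ap2 (FLASH), which joins the U7 complex, had 1.92, 4.22, 2.72 and 3.63 RPKM and rose, and Lsm10, a subunit of U7 snRNP, had 15.6, 10.7, 12.8 and 11.5 RPKM and fell. Slbp, the stem-loop binding protein itself, had 16.4, 18.6, 17.0 and 20.3 RPKM and did not pass (0.15 ± 0.15, edgeR, adjusted p = 0.480). Of 18 histone chaperones 4 (22.2%) rose, a share near that of all genes, and 0 fell, with Nasp, a chaperone of H3 and H4, at 15.1, 21.1, 15.8 and 23.4 RPKM. Of 22 genes of S phase 8 (36.4%) rose and 0 fell, led by Pola1, the catalytic subunit of DNA polymerase α (0.57 ± 0.15), and Rrm1 of ribonucleotide reductase (0.50 ± 0.14). With offsets for GC content and length the counts were 4 and 0 for transcription, 2 and 2 for 3′ ends, 4 and 2 for chaperones and 6 and 1 for S phase.

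Replacement histones, whose genes lie outside the clusters and mostly give polyadenylated mRNAs, ranged widely in level per length. H1f0, H2afz and H3f3b were each above Hist1h1c, the highest cluster gene by RPKM, in every library, while H1fx (1, 2, 0 and 6 reads) and H1foo (3, 5, 0 and 3) could not be tested. H1f0, the linker histone H1.0 of resting and differentiated cells, had 709, 394, 579 and 415 RPKM, so both libraries with TGF-β were lower, and it fell (−0.73 ± 0.12, edgeR, adjusted p = 1.38e-08). H2afj had 124, 71.4, 96.4 and 83.0 RPKM and fell (−0.57 ± 0.14, edgeR, adjusted p = 0.000198). H3f3b, which encodes H3.3, had 481, 386, 491 and 392 RPKM and fell (−0.39 ± 0.12, edgeR, adjusted p = 0.00442), and H2afx was the fourth of the 10 tested to fall. H2afz, at 605, 606, 573 and 657 RPKM, did not pass. None of the 10 rose, and with GC and length offsets 6 fell.

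Of the 20 histone genes called for TGF-β, 5 (Hist1h1c, Hist1h1d, Hist1h2bc, Hist3h2ba and Hist1h3c) were called in the same direction in all 12 other fits. Hist3h2a, Hist2h2aa2 and Hist1h2bk were called in all 11 fits in which they could be tested. None of them could be tested with unique reads, so those 11 fits all rest on total reads and do not bear on shared reads. The number of genes that rose was 4 when the TGF-β library was left out and 5 when the costimulation library was, against 9 with all 4, and the number that fell was 8 to 11 when a library was left out. The counts were 11 higher and 10 lower with GC and length offsets.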

How the data were processed

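RNA-seq of 4 CMT64 libraries (1 per condition) was analysed from 1 gene table each. The authors removed adapters and mapped reads with CLC Genomics Workbench (maximum of 30 hits per read, version not given in the sources used here) to mm10, as the submitters' processing notes name the build. They deposited read counts per gene, total (reads with several hits included) and unique, and RPKM made from total exon reads. Strand marking is not given in the sources used here, so overlapping genes cannot be told apart by strand. Intron counts served only for the intron share, and TPM and the authors' comparison columns, where present, were not used.

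Mapped reads were recovered from counts, exon lengths and RPKM. Folds are ratios of reads per mapped read, with 95% Clopper-Pearson intervals of the conditional binomial distribution and a floor of 3 reads for 0; these and the Wilson intervals cover counting error only. The additive test was edgeR (4.0.16, R 4.3.3; TMM, filterByExpr, robust quasi-likelihood) on deposited counts, adjusted by Benjamini-Hochberg (threshold 0.05). DESeq2 (1.42.0), limma (3.58.1) on log2(RPKM + 0.1) and log2(RPKM + 1), unique reads, DESeq2 size factors, no filter, the tested cytokine alone and each library left out were alternatives; offsets in 10 bins of GC and length and family sums were added after seeing the data. The test was also run on simulated counts with additive effects and a spread estimated from these same libraries. That run cannot show how the test behaves under the unknown spread between cultures or with shared reads. Sequences came from GENCODE M21 and RefSeq (GRCm38.p6). Other steps used Python 3.11.15.

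The members and lists were chosen with earlier results of these data known. Named genes are, per class, the 3 of highest mean RPKM and the lowest and highest unique share. Every gene called and the 5 highest and lowest folds of each TGF-β contrast are also named. Genes with few reads, named as neighbours or named as going against the calls were singled out after their values were seen.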

Additional observations from a re-analysis of the deposited data

Results flagged for a closer look

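Hist1h2bq went in opposite directions with TGF-β depending on the background. Over control the fold was 1.79 (95% counting interval 1.35 to 2.40), and when TGF-β was added to TNF-α it was 0.65 (0.46 to 0.91). With 1 library per condition the difference was not tested. Its reads were 76, 147, 91 and 58 in control, TGF-β, TNF-α and costimulation, of which 3, 1, 2 and 1 were unique, and the near-copy Hist1h2br had 73, 0, 68 and 27. Summed over both genes the folds were 0.92 (0.72 to 1.16) and 0.55 (0.41 to 0.71), so the sum did not go in opposite directions beyond the counting intervals. The part of shared reads in the remaining difference was not tested.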

How the results depend on the processing

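No paired analysis was possible because each condition had 1 library and the labels give no replicate numbers. The number of histone genes higher with TGF-β (9) became 4 with unique reads, 2 in DESeq2, 16 in limma with either pseudocount and 5 with the tested cytokine as the only term; it ran from 4 to 12 when a library was left out. The number lower (11) became 7 with unique reads and ran from 8 to 11 without a library. For TNF-α the 1 histone gene became 0 with unique reads, in DESeq2, with the tested cytokine alone and with GC and length offsets, 6 and 3 in limma with pseudocounts of 0.1 and 1 RPKM, and 0 without any library. All genes called with TGF-β (5191) ran from 3111 to 7475 without a library, and those called with TNF-α (57) became 19 in DESeq2, 32 in limma with a pseudocount of 1 RPKM, 37 with the offsets, 0 with 1 term, and 0 in each fit without a library. The median log2 fold over control was −0.89 for genes with at least 1000 reads, and over TNF-α it was −0.66 with at least 1000 reads and 0.25 with at least 10, which turned its direction. Over the other alternatives the medians kept their sign. Scaling by TMM moved every log2 fold by −0.07 or less in size. Of 337 values of named genes for TGF-β, 272 kept their side of the threshold, 56 lost it, 9 gained it and 0 reversed. With 1 library per condition and few unique reads in the H2A genes, small differences were not detectable at this depth.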
